A study of Homo sapiens with 4 samples.

Results

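T-lineage identity transcription factors are the DNA-binding and chromatin-organising proteins that set up and hold the T-cell programme. The 10 genes described here are SATB1, TCF7, LEF1, BCL11B, BCL11A, IKZF1, IKZF2, IKZF3, TOX and GFI1, taken by name from a table of 22361 genes and loci. Each has 1 row, and all 10 were among the 14601 genes tested. RNA came from Jurkat cells, an established human line derived from T-cell acute lymphoblastic leukaemia, in 4 libraries. In 2 control libraries the cells carried shRNA to GFP, and in 2 knockdown libraries shRNA to the long non-coding RNA ARIEL. All 4 received lentivirus with polybrene and puromycin selection (0.7 µg/ml for 36 h or longer), and cells were pelleted 72 h after infection. Whether replicates were separate cultures, and how many shRNA sequences were used, is not given in the sources used here, so the tests take in the spread of these samples only, which may be technical. The comparison asks which RNAs differ when ARIEL is depleted.

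As background, T-cell identity is built in steps. TCF-1, the product of TCF7, acts early in the thymus downstream of Notch signals and shares its HMG-box DNA-binding domain and many sites with LEF-1. BCL11B then commits the cell to the T lineage, while Ikaros-family zinc finger proteins and SATB1 organise chromatin so that lineage genes are kept on and others off. Several of these factors are lost or altered in T-cell leukaemia.

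Values are regularised log (rlog) expression, a log2 scale on which genes are shrunk to their mean over libraries, noisy low genes most. A difference thus understates the change. Differences of abundant members were also smaller than the authors' log2 fold changes (IKZF2 -0.44 against -0.79, LEF1 -0.19 against -0.34). Each difference is knockdown minus control with its standard error (SE), n = 2 per group, and a gene is called where limma, fitted over all 14601 genes with a spread shared by genes of like level, gave a Benjamini-Hochberg adjusted p under 0.05. Median rlog over tested genes lay between 11.31 and 11.32 in the 4 libraries, and read depth is unknown. XLOC_005968, which background knowledge of the study and not the table names as ARIEL, was lower in the knockdown libraries (10.58 and 10.55, against 12.02 and 11.91). All 12 T-cell markers (TAL1 included) were above an rlog of 12 in every library. Of them 6 were called lower and 2 higher, where 22.4% of all tested genes were called lower and 22.1% higher. The B-cell genes MS4A1 and PAX5 and the myeloid gene CSF1R were at or near 0. The B-cell receptor gene CD79A was present and called higher in knockdown libraries (11.23 and 11.25, against 10.91 and 10.99). The B-cell gene BLNK was called lower (4.38 and 4.38, against 4.42 and 4.46), and the B-cell factor gene EBF1 lay between 7.55 and 7.66. Of 3 myeloid genes tested only the factor gene CEBPA was called, as higher (9.82 and 9.90, against 9.72 and 9.77). The authors' test did not call CEBPA, nor did limma with the trend on transcript GC content and length removed (described below). Of 3 natural killer cell genes tested only PRF1 was called, as lower (9.77 and 9.78, against 9.97 and 9.95). The erythroid gene KLF1 (-0.07) and the fibroblast gene COL1A1 (-0.18) were called lower, and the epithelial gene KRT8 (0.07) higher. The part of these genes in the results was not tested.

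Of the 10 factors, 6 fell, 1 rose and 3 were not called. The falls were IKZF2, TOX, SATB1, LEF1, IKZF1 and BCL11B, the rise was IKZF3, and BCL11A, GFI1 and TCF7 were not called. Over all tested genes 22.4% were called lower and 22.1% higher (44.4% in all). The median difference of the 10 was -0.10, against 0.00 over all tested genes. In bulk RNA, fewer cells that express a gene and less of its RNA per cell cannot be told apart. The groups did not overlap in 9 of the 10 genes, and in 70.7% of all tested genes. With 2 libraries against 2, an exact permutation test of a single gene cannot give a p below 0.333, so each call rests on the spread shared over genes. With each gene's variance estimated alone, limma called 0 of the 10 and 0 genes in all, and 31.2% of genes had an unadjusted p under 0.05.

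**Figure D1:**
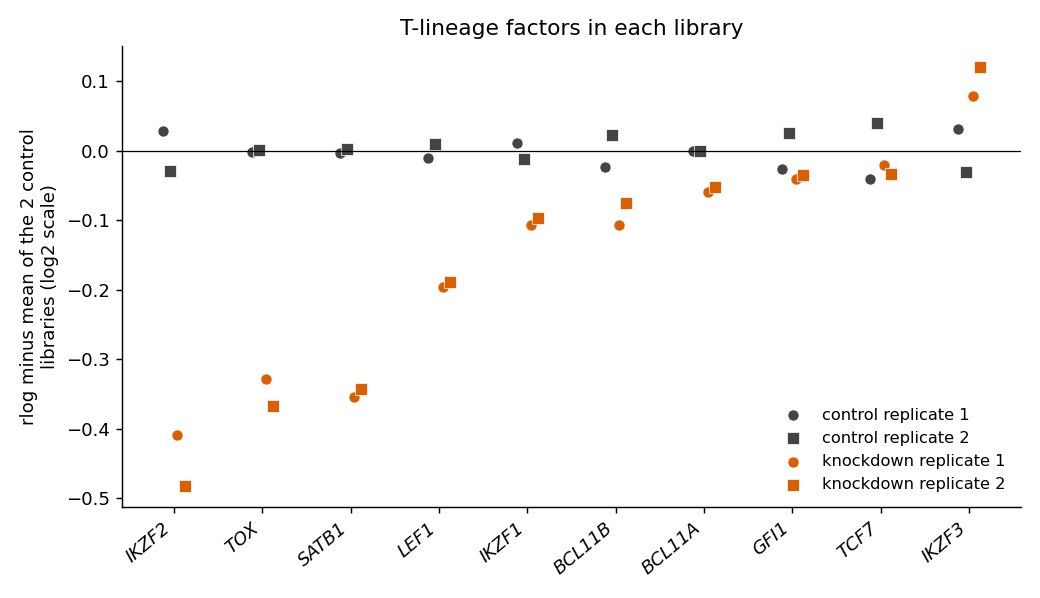
rlog of each T-lineage factor in each library, as the distance from the mean of its 2 control libraries (log2 scale). Grey points are control and orange points knockdown libraries, with circles for replicate 1 and squares for replicate 2. IKZF2, TOX, SATB1 and LEF1 have both knockdown libraries well below both control libraries, and TCF7 is the only gene whose groups overlap.

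The largest difference was in IKZF2, which encodes Helios, an Ikaros-family zinc finger factor of thymocytes and regulatory T cells. Control libraries had IKZF2 rlog values of 14.89 and 14.83, and knockdown libraries 14.45 and 14.38. Both knockdown libraries were below both controls, and the gap between groups was several times that between replicates. The difference was -0.44 ± 0.03 (limma, adjusted p = 1.84e-42), and 1.06% of tested genes had a lower one. The authors' deposited table gives IKZF2 as 1.73-fold lower (log2 fold change -0.79 ± 0.06, SE).

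TOX and SATB1 fell by nearly the same amount. TOX, an HMG-box protein needed for development of CD4 T cells, had rlog values of 12.70 and 12.71 in control libraries and 12.38 and 12.34 in knockdown libraries. Its difference was -0.35 ± 0.03 (limma, adjusted p = 1.09e-21). SATB1, which tethers distant chromatin segments into loops in thymocytes, had 14.03 and 14.03 in control libraries and 13.68 and 13.69 in knockdown libraries. For SATB1 the gap between groups was far wider than that between replicates, and its difference was -0.35 ± 0.03 (limma, adjusted p = 1.45e-25). TOX was 1.55-fold and SATB1 1.54-fold lower in the authors' deposited table. TBC1D5 and SATB1 overlap on 1 strand in GENCODE 29, and reads of the shared stretch may not be separable. TBC1D5 also fell, by a smaller amount: 14.08 and 14.08 in control and 13.94 and 13.91 in knockdown libraries, with a difference of -0.15 ± 0.03.

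The HMG-box partners LEF1 and TCF7 differed in their values. LEF1 had rlog values of 15.77 and 15.79 in control libraries and 15.59 and 15.59 in knockdown libraries, a difference of -0.19 ± 0.03 (limma, adjusted p = 2.58e-08). TCF7 had 14.27 and 14.35 in control libraries and 14.29 and 14.28 in knockdown libraries, so that both knockdown values lay between the controls. The difference for TCF7 was -0.03 ± 0.03 (95% interval -0.09 to 0.04; limma, adjusted p = 0.514), and it was 0.01 without control replicate 2. The log2 ratio of LEF1 to TCF7 differed by -0.17 between the groups (SE 0.05, 95% interval -0.25 to -0.08, treating the genes as independent), with both knockdown ratios below both controls. SKP1 overlaps TCF7 on the opposite strand in GENCODE 29. The libraries were strand-specific, but whether strand was used in counting is not given in the sources used here. SKP1 differed by -0.10 ± 0.03.

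Ikaros-family genes did not move as a group. IKZF1, which encodes Ikaros, a tumour suppressor of lymphoid leukaemia, had 15.02 and 14.99 in control libraries and 14.90 and 14.91 in knockdown libraries. Its difference of -0.10 ± 0.03 was called (limma, adjusted p = 0.00451), but not without control replicate 1 (0.0547) or ARIEL knockdown replicate 1 (0.0536). IKZF3, which encodes Aiolos, best known in B cells, was far lower in level than the other members. It had 6.82 and 6.76 in control libraries and 6.87 and 6.91 in knockdown libraries, a difference of 0.10 ± 0.04 (limma, adjusted p = 0.0345). That call was lost without control replicate 2 (adjusted p = 0.246) and without ARIEL knockdown replicate 2 (0.253), and with no filter on low genes (0.0842). In the authors' deposited table IKZF3 had a log2 fold change of 0.35 ± 0.20 (SE) and an adjusted p of 0.174. As rlog shrinks low genes most, its difference is not on the same footing as that of IKZF1 or IKZF2.

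Within this family the log2 ratio of IKZF2 to IKZF1 was -0.13 and -0.16 in control and -0.45 and -0.53 in knockdown libraries, a change of -0.34 (SE 0.04, 95% interval -0.43 to -0.26). IKZF2 relative to IKZF3 changed by -0.54 (SE 0.05), and IKZF1 relative to IKZF3 by -0.20 (SE 0.05). From the log2 fold changes in the authors' deposited table these changes were -1.14 and -0.53. There IKZF3 alone has an SE of 0.20, so the SE of 0.05 from shrunken rlog values is too small for ratios with IKZF3. In each of these ratios the groups did not overlap. Over 5 family pairs, the exact two-sided permutation p was 0.333 for 4 pairs, the smallest it can be, and 0.667 for BCL11B against BCL11A (0.417 and 0.667 after Benjamini-Hochberg adjustment).

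Of the BCL11 zinc finger genes, BCL11B was called and BCL11A was not. BCL11B, the T-lineage commitment factor, had 14.24 and 14.29 in control libraries and 14.16 and 14.19 in knockdown libraries. The knockdown values were lower, by 0.09 on average (difference -0.09 ± 0.03; limma, adjusted p = 0.0128), though the nearest values of the groups were about as close as replicates of a group. Its call was lost without control replicate 2 (0.147), without ARIEL knockdown replicate 1 (0.160) and after quantile normalization (0.0527). BCL11A, known for lymphoid progenitors and as the repressor of fetal globin genes, had 11.90 and 11.90 in control libraries and 11.85 and 11.85 in knockdown libraries. Its difference was -0.06 ± 0.04 (95% interval -0.13 to 0.02; limma, adjusted p = 0.232). The BCL11B to BCL11A ratio changed by -0.04 (SE 0.05, 95% interval -0.13 to 0.06), so a difference between these genes was not shown.

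GFI1, a zinc finger repressor that recruits the LSD1 demethylase, had 12.56 and 12.62 in control libraries and 12.55 and 12.56 in knockdown libraries. Its lowest control was within 0.01 of its highest knockdown value. The difference was -0.04 ± 0.03 (95% interval -0.11 to 0.03; limma, adjusted p = 0.401).

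**Figure D2:**
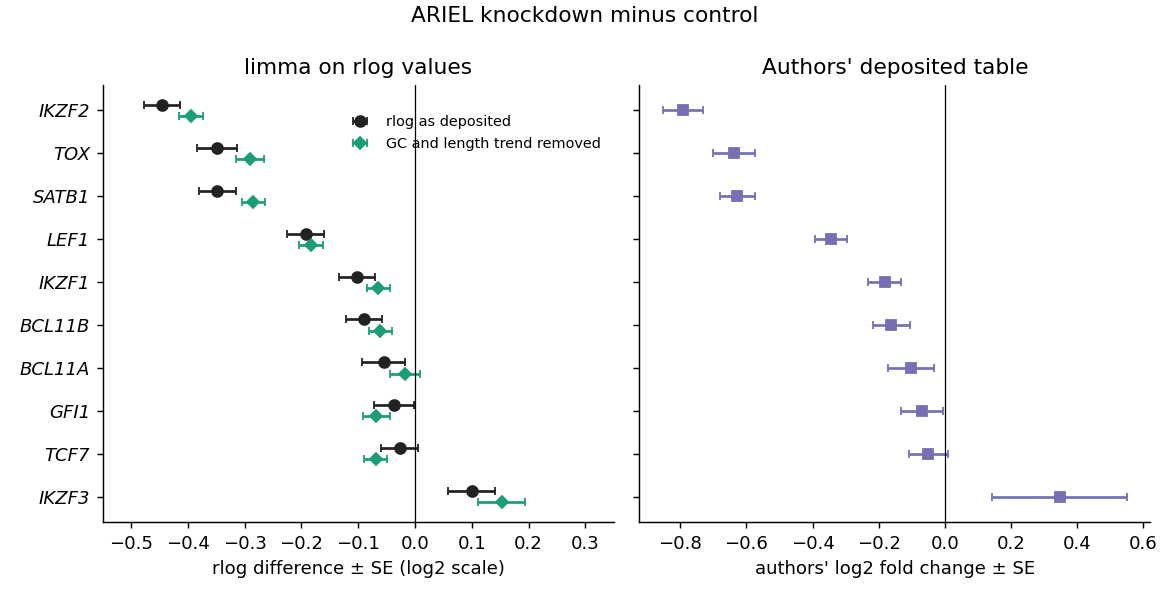
Difference between knockdown and control libraries for each factor, with bars of 1 SE. The left panel gives rlog differences from limma as deposited (circles) and with the trend on transcript GC content and length removed (diamonds); the right panel gives the authors' log2 fold changes. IKZF2 lies lowest and IKZF3 highest in both panels.

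The authors' deposited test made the same 6 calls lower and called none of the 10 higher. There, 19.3% of 14551 genes with an adjusted p were called lower (39.4% in either direction). The median log2 fold change of the 10 factors there was -0.17, against 0.00 over the genes tested here. LEF1 was 1.27-fold lower, and IKZF1 1.13-fold lower in the authors' deposited table, where BCL11B had a log2 fold change of -0.16 ± 0.06 (SE).

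**Figure D3:**
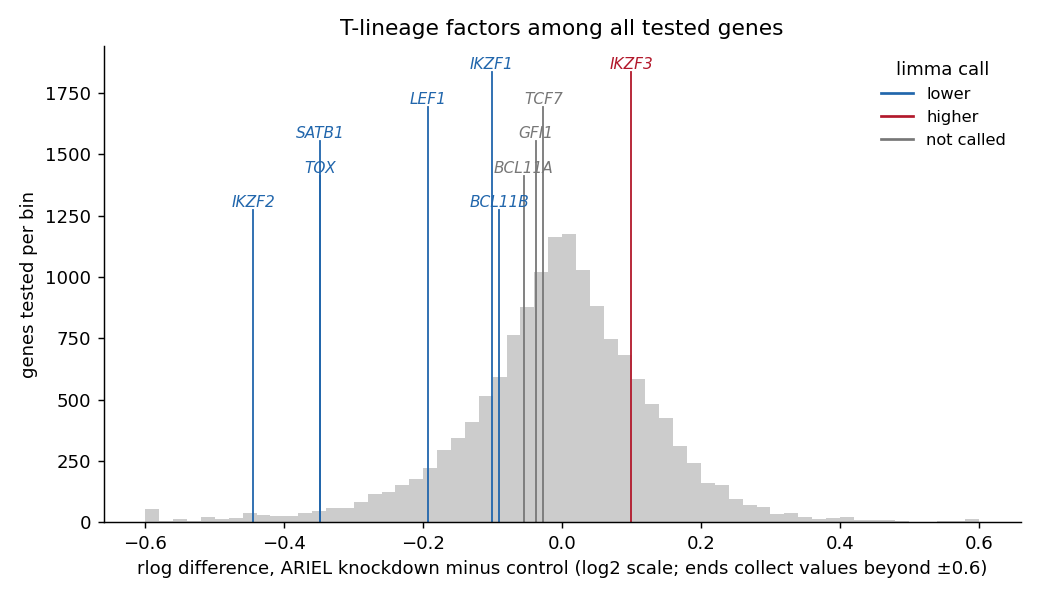
Histogram of rlog differences over the 14601 tested genes, with a line for each T-lineage factor coloured by its call. IKZF2, TOX and SATB1 lie in the lower tail, and TCF7, GFI1 and BCL11A near the centre.

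Set among all tested genes, the members spread from the lower tail to the upper part of the range. Lower differences than those of TOX and SATB1 were found in 2.12% of tested genes each, and lower ones than that of LEF1 in 7.92%. IKZF1 had 19.3% and BCL11B 21.4% of genes below it, BCL11A 30.3%, GFI1 35.9% and TCF7 39.2%. IKZF3 had 19.2% of genes above it. Ranks of genes of unlike level are not on the same footing, as rlog shrinks low genes most. The authors' log2 fold change was 0.35 ± 0.20 (SE) for IKZF3 and -0.34 ± 0.05 for LEF1. Among the called falls the widest gap between neighbours lay between SATB1 (-0.35) and LEF1 (-0.19), followed by IKZF1 (-0.10) and BCL11B (-0.09).

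Levels can be compared between genes only per transcript length, here as rlog minus log2 of the length in kilobases of 1 transcript per gene from GENCODE 29. On that scale LEF1 was the most abundant in control libraries at 14.17 ± 0.01 (SD, n = 2). IKZF2 followed at 12.90 ± 0.04, TCF7 at 12.71 ± 0.06 and IKZF1 at 12.35 ± 0.02. BCL11B lay at 11.35 ± 0.03, GFI1 at 11.08 ± 0.04, SATB1 at 11.06 and TOX at 10.66. BCL11A was lower at 8.98, and IKZF3 lowest at 3.51 ± 0.04. GFI1 and SATB1 did not differ beyond the spread of GFI1, and every other pair of neighbours was further apart than the SDs of both genes. In knockdown libraries IKZF2 had 12.49 and 12.42 per kilobase and TCF7 12.68 and 12.67, so these neighbours changed places. Which isoforms Jurkat cells make was not measured here, so the order depends on the chosen transcripts.

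The members with the largest falls had transcripts of low GC content, and a trend on GC content ran through the libraries. Transcript GC content was 41.2% for TOX, 42.0% for IKZF2 and 42.6% for SATB1, against a median of 49.7% over 12719 tested genes with a transcript. TCF7 (58.8%) and GFI1 (56.1%), which were not called, had the highest, and LEF1 (49.6%), BCL11A (48.6%), IKZF1 (48.3%) and BCL11B lay near the median. IKZF3, the member that rose, had 45.7%. Across the 12719 genes, which share libraries and are not independent, Spearman's rho of the group difference with GC content was 0.40, and that of replicate 2 minus replicate 1 was 0.59 in control and 0.41 in knockdown libraries. The median difference of all genes was -0.08 in the lowest and 0.08 in the highest GC decile.

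**Figure D4:**
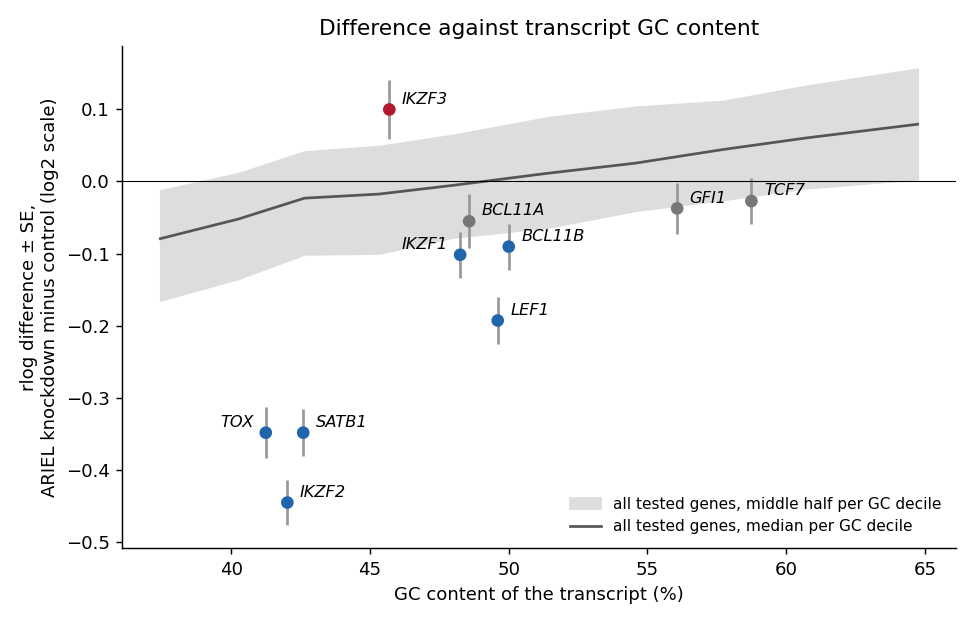
rlog difference of each factor (points, bars of 1 SE, coloured by call) against the GC content of its transcript in percent, over the median (line) and middle 50% (band) of all tested genes in each GC decile. TOX, IKZF2 and SATB1 lie far below the band at their GC content and IKZF3 above it. LEF1, IKZF1 and BCL11B also lie below the band, and TCF7 and GFI1 near its lower edge.

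With the trend on GC content and length removed, IKZF2 differed by -0.39 ± 0.02, TOX by -0.29 ± 0.02, SATB1 by -0.28 ± 0.02 and LEF1 by -0.18 ± 0.02. IKZF1 and BCL11B each differed by -0.06 ± 0.02 (limma, adjusted p = 0.00631 and 0.0103). TCF7 and GFI1 were then called lower, each with a difference of -0.07 ± 0.02 (limma, adjusted p = 0.00474 and 0.0143). IKZF3 rose by 0.15 ± 0.04, and BCL11A was at -0.02 ± 0.03 and not called (0.612). On this scale 8 of the 10 were called lower and 1 higher, where 24.2% of all genes were called lower and 53.2% in either direction. The TCF7 and GFI1 calls thus depend on whether the trend is removed, whereas those of IKZF2, TOX, SATB1 and LEF1 do not.

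Short 3′ UTR words were held by members called lower and by members not called lower on the values as deposited. The words GATGACA and AGATGAC were picked in an earlier analysis of these same data as having lower carriers, so they are a description here. They overlap by 6 bases and were searched on the sense strand, as were TGTTGTC and GTTGTCA, picked there for higher carriers. Of 3′ UTRs of 12459 tested genes 14.2% held GATGACA or AGATGAC. SATB1, TCF7 and BCL11B each hold both as 1 overlapping site, BCL11A holds AGATGAC at 2 sites and GTTGTCA at 1, and IKZF3 holds GATGACA. IKZF2 and TOX, which had 2 of the 3 largest falls, hold none of the 4 words in the transcript used, nor do LEF1, IKZF1 and GFI1. TCF7, with the same 8 bases as SATB1, was not called on the values as deposited. It was called lower with the GC and length trend removed (-0.07; limma, adjusted p = 0.00474). IKZF3 was called higher by limma but not by the authors' test. The sites are shown because they set SATB1, which fell, beside TCF7 and IKZF3, which were not called lower on the values as deposited. Words are in capitals, and sequences are from GENCODE 29 transcripts, sense strand.
SATB1: gcagtttaaAGATGACAtatgccaac
TCF7: caaagctcaAGATGACAgctcttcta
BCL11B: aaaatgttgAGATGACAggaggtcat
IKZF3: actgtggatGATGACAtcgctttcc

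Longer 3′ UTRs hold such words more often, and several members have long ones. Among 3′ UTRs of 0.8 to 1.25 times the length, the share with GATGACA or AGATGAC was 31.3% for SATB1 (3783 bases), 15.6% for TCF7 (1694 bases), 37.3% for BCL11B (4864 bases), 26.7% for BCL11A (3212 bases) and 54.8% for IKZF3 (8075 bases). It was 18.2% for IKZF2 (1997 bases), 20.2% for TOX (2329 bases) and 35.7% for IKZF1 (4474 bases). The part of these words in any member's difference was not tested.

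Promoters of 8 members were matched by symbol in RefSeq (GRCh38.p14), as 21 windows of 300 bases, 250 before to 50 after a transcript start. They were SATB1, TCF7, LEF1, BCL11B, BCL11A, IKZF1, IKZF2 and GFI1. Motifs of factors in the TAL1 circuit were searched on both strands, chosen with results of these data known. TGTGGT, the core that RUNX proteins bind, was in 6 of the 21 windows (28.6%), against 13.1% of all 35116 windows. It was in 1 window for each of 6 genes, with a pair of matches in that of IKZF2. Per gene this was 6 of 8, against 15.6% of 27305 genes. Windows of 1 gene are not independent, and the 8 genes have 1 to 5 each, so genes are not searched over equal lengths. CAGATG, preferred by TAL1 with an E protein, was in 1 window, of SATB1 (14.7% of all), with matches at -203 and -173 from the transcript start. AGATAA, which GATA factors bind, was in 1 window, of IKZF1 (10.3% of all), with matches at -106, -72 and -2. CTTTGA, a TCF and LEF motif, was in 1 window, of IKZF2 (12.9% of all), and CAGCTG, an E-protein motif, in 2 windows, of SATB1 and IKZF1 (17.9% of all). None of the TGTGGT matches overlapped another of these motifs, and TCF7 and BCL11B held none of the 5. Stretches around TGTGGT or its reverse complement ACCACA (capitals) are printed on the gene's strand. They set 4 called genes beside BCL11A and GFI1, which were not called on the values as deposited.
IKZF2 (chr2:213152589-213152614, minus strand): ataaacaagcTGTGGTtgatagtgat
SATB1 (chr3:18444307-18444332, minus strand): tggacacaccACCACAcctgcccaat
LEF1 (chr4:108166343-108166368, minus strand): aaagaaagtgTGTGGTtttgagggcg
IKZF1 (chr7:50308546-50308571, plus strand): acccttttccACCACAagcctgacaa
BCL11A (chr2:60528531-60528556, minus strand): ccatgggttcTGTGGTcaagtttttc
GFI1 (chr1:92486131-92486156, minus strand): aagtgaagctTGTGGTtttgggggct

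Of the genes with TGTGGT in a window, GFI1 was called lower with the GC and length trend removed (-0.07; limma, adjusted p = 0.0143). A match is not a bound site, and the part of this motif in any member's difference was not tested. RUNX1, whose protein binds this core in T cells, itself differed by -0.15 ± 0.03 (14.26 and 14.31 in control, 14.17 and 14.10 in knockdown libraries). RUNX3, of the same family, was not called (0.02 ± 0.04; limma, adjusted p = 0.673).

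Genes whose values over the 4 libraries lay nearest to those of IKZF2, each gene centred on its own mean, were PEX5L (Euclidean distance 0.0097), GNAQ (0.017), NEK7 (0.017), TMOD2 (0.019) and ARNTL2 (0.026). PEX5L had 12.04 and 11.98 in control and 11.61 and 11.53 in knockdown libraries, with the second replicate lower in both groups, as for IKZF2.

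Family members of the factors were in part below the level tested. Of 10 paralogues in the table, 5 were tested and 1 fell, where 22.4% of all tested genes fell and 44.4% were called. The fall was in IKZF5, with a difference of -0.12 ± 0.05 (limma, adjusted p = 0.0280). That call was lost without control replicate 2 (0.106), ARIEL knockdown replicate 1 (0.0898) or replicate 2 (0.154), and with the GC and length trend removed (-0.00; 0.974). TCF7L2, TOX2 and TOX4 were among those not called. With that trend removed, TOX2 was called lower (-0.09; limma, adjusted p = 0.00765) and TOX4 higher (0.09; 0.00061). The genes IKZF4, TCF7L1, TOX3, GFI1B and ZNF296 were below the level tested.

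Other transcription factors of T-cell specification moved in both directions. Among 23 such genes there were 9 falls and 6 rises, and the median was 0.02. Over all tested genes 22.4% were called lower and 22.1% higher (44.4% in all). With the GC and length trend removed there were 7 falls and 9 rises, and the median was -0.01. On that scale 24.2% of all genes were called lower and 53.2% in either direction. GATA3, a zinc finger factor that works with TCF-1 and BCL11B, went from 10.25 and 10.28 to 9.99 and 10.00 (difference -0.27 ± 0.05). MYB, a regulator of thymocyte progenitors, differed by -0.23 ± 0.03 and the Notch effector HES1 by -0.60 ± 0.05. The inhibitors of E proteins were higher: ID3 went from 11.52 and 11.50 to 11.81 and 11.87 (0.33 ± 0.04) and ID2 from 8.62 and 8.60 to 8.84 and 9.01 (0.31 ± 0.05). ETS2, an ETS-family factor, rose by 0.27 ± 0.03.

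Of 16 tested partners of TCF-1 and LEF-1 and Wnt feedback genes, 7 fell, 2 rose and 7 were not called, with a median of -0.06. Over all tested genes 22.4% fell and 44.4% were called. TLE4, a Groucho-type co-repressor that binds TCF and LEF proteins, went from 11.65 and 11.66 in control libraries to 11.19 and 11.19 in knockdown libraries, a difference of -0.47 ± 0.04 (limma, adjusted p = 1.04e-29). BCL9 (-0.29 ± 0.04) and PYGO2 (-0.26 ± 0.03), which link beta-catenin to transcription, also fell. The relative TLE2 went the other way, with 10.45 and 10.52 in control and 10.70 and 10.71 in knockdown libraries (0.22 ± 0.04). AES, a short Groucho-family member, was called higher (0.10 ± 0.03; limma, adjusted p = 0.00639). That call was lost without control replicate 1 (0.0837), ARIEL knockdown replicate 1 (0.0707) or ARIEL knockdown replicate 2 (0.0547), and AES was at -0.00 with the GC and length trend removed. AXIN2, a common readout of beta-catenin with TCF proteins, was not called, with 10.28 and 10.34 in control and 10.23 and 10.26 in knockdown libraries. Without ARIEL knockdown replicate 1 fewer of the 16 were called, as over all tested genes.

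Subunits of co-repressor complexes that these factors recruit mostly had small differences. In NuRD, the remodelling and deacetylase complex bound by IKZF and BCL11 proteins, 6 of 14 rose, 1 fell and 7 were not called (median 0.04), where 22.1% of all tested genes rose and 44.4% were called. MTA1 and MTA2 each differed by 0.14 ± 0.03 and MBD3 by 0.12 ± 0.03, while the histone-binding subunit RBBP4 differed by -0.15 ± 0.03. Without ARIEL knockdown replicate 2 fewer were called, in this list as over all tested genes. The differences of MTA2 (0.10) and MBD3 (0.09) were then smaller, and both lost their calls. In the CoREST and LSD1 complex, bound by GFI1, 5 of 9 rose, 1 fell and 3 were not called (median 0.10). Fewer were called without that library here too. RCOR2, a CoREST subunit, had 10.84 and 10.89 in control and 11.26 and 11.30 in knockdown libraries (0.42 ± 0.04). HMG20B rose by 0.14 ± 0.03 and the deacetylase gene HDAC1, which belongs to both complexes, by 0.10 ± 0.03. The HDAC1 call was lost without control replicate 2 (limma, adjusted p = 0.0665) and without ARIEL knockdown replicate 2 (0.217). RCOR1 was called lower (-0.09 ± 0.04), but not without control replicate 1 (0.0771) or ARIEL knockdown replicate 2 (0.535). With the GC and length trend removed MBD3 (0.192), HMG20B (0.0600) and RCOR1 (0.146) lost their calls, and the differences of RBBP4 (-0.08) and MTA1 (0.08) were smaller.

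T-lineage genes that these factors are known to bind or regulate went both ways. Among 23 such genes there were 10 falls and 7 rises (median -0.02), where 44.4% of all tested genes were called. TRAT1, a T-cell receptor adaptor, differed by -0.73 ± 0.04 and CD3G, a chain of the receptor complex, by -0.30 ± 0.03. PTCRA, the pre-T-cell receptor alpha chain, rose from 9.73 and 9.88 to 11.07 and 11.28 (1.37 ± 0.04). Its SE was 0.13 with its variance estimated alone. The recombinase gene RAG1 (0.85 ± 0.03) rose, as did CD7 (0.23 ± 0.03, and 0.12 with the GC and length trend removed).

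Factors of other lineages gave no common direction. Among 12 tested there were 3 falls and 3 rises (median 0.04), where 44.4% of all tested genes were called. Fewer of the 12 were called without ARIEL knockdown replicate 2, as over all tested genes. The test in the authors' deposited table called 2 of them, where it called 39.4% of genes. SPI1 and GATA1, which drive myeloid and erythroid cells, were listed at 0 in every library. ID2 was among the rises, and POU2AF1, a co-activator best known in B cells, went from 8.80 and 8.82 to 8.33 and 8.29 (-0.50 ± 0.05). GATA2 (0.10 ± 0.04) and CEBPA (0.12 ± 0.05) were called higher by limma, with losses in several settings. The GATA2 adjusted p was 0.297 without control replicate 2 and 0.156 without ARIEL knockdown replicate 2, and the CEBPA value 0.179 without control replicate 1 and 0.377 without ARIEL knockdown replicate 2. With the GC and length trend removed neither was called (0.239 and 0.492).

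**Figure D5:**
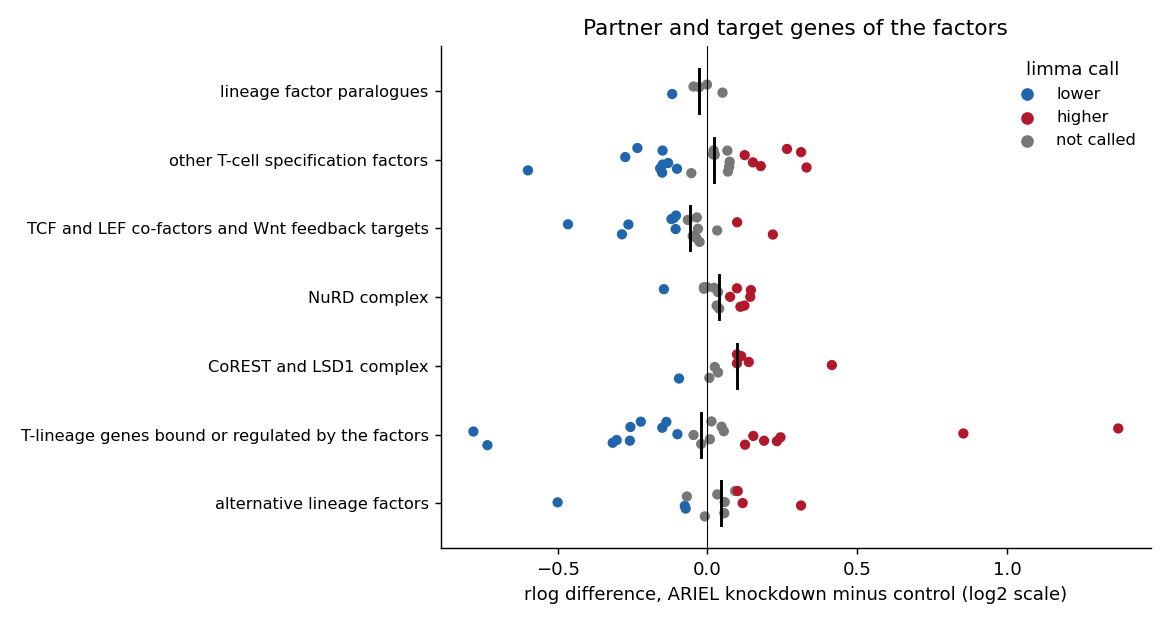
rlog difference of each tested gene in 7 lists of partner, target and related genes, coloured by call, with a black bar at each list's median. TCF and LEF co-factors lie mostly below 0 and the NuRD and CoREST subunits mostly above it, and PTCRA, among the T-lineage genes, has the highest value (1.37).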

How the data were processed

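RNA-seq of 4 libraries was analysed from 1 deposited table. Build hg19 and the tools DESeq2 1.12.4, HTSeq 0.6.1 and STAR 2.5.2a are listed, without roles, per the submitters' processing notes. Per the file headers, the authors gave each gene an rlog (log2) value in every library. Their test is also deposited, as a log2 fold change with SE, a score that equals their ratio, a p-value and its adjusted form. Without counts, neither depth nor counting error can be stated. Per the labels' protocols, ERCC spike-ins were scaled to cell number; the table holds 0 such rows, and whether scaling used them is not stated, so differences are relative to these values' own scaling.

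The deposited rlog values were tested with limma 3.58.1 in R 4.3.3 (lmFit, eBayes with a trend on level; no pseudocount) over the 14601 genes with a mean of at least log2 of 10. limma estimated infinite prior degrees of freedom: genes of a level share 1 spread, and the SE is too small for genes that vary more. The script was tested on simulated data. GENCODE 29 (GRCh38) gave 1 transcript per gene (APPRIS principal, then longest) for GC content, length and 3′ UTR, and the trend of each library was removed with splines of 5 degrees of freedom each. Python 3.11.15, numpy 2.4.6, pandas 2.3.3 and scipy 1.17.1 were used.

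Members and lists were chosen with earlier results of these data known. Named genes were the 10 members, the targeted locus, the 5 genes nearest to IKZF2 and overlapping genes. Up to 3 called genes per list and direction were also named, with the smallest adjusted p and a mean of at least log2 of 50. RUNX1, RUNX3, AXIN2 and paralogues not called were added after their values were seen. Alternatives covered filters, spread, scaling, pairing, the GC trend, each library left out and the authors' test. Some genes that these rules would name are not reported here.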

Additional observations from a re-analysis of the deposited data

How the results depend on the processing

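With the variance estimated gene by gene (2 degrees of freedom), limma called 0 of the 10 factors and 0 genes in all, with 4561 genes (31.2%) at an unadjusted p under 0.05; adjusted p ran from 0.0748 (SATB1) to 0.684 (TCF7), and the authors' test called 6 factors and 5728 genes. With each library left out in turn, 4225 to 6188 genes were called, against 6488, and 5 to 6 of the 10 factors, against 7; the low count of genes came without ARIEL knockdown replicate 2. IKZF2, TOX, SATB1 and LEF1 kept direction and call in every setting but their own variance. TCF7 ranged from -0.067 to 0.013 with a library left out, and was above 0 without control replicate 2; AES was at -0.00 (-0.0025) with the GC and length trend removed, with or without the replicate block. With the replicate block 7426 genes and the same number of factors, 7, were called; replicate numbers share only a number in the labels, and deviations of same-numbered libraries correlated at 0.20 over tested genes. The share of calls that were higher was 49.7%, 53.1% after median centring or quantile normalization and 54.4% with the GC and length trend removed. Of 150 values for single factors under an alternative, 129 kept direction and call, 16 lost and 4 gained a call and 1 reversed.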
